A study of Rattus norvegicus with 4 samples.

Results

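The genes described here are 7 genes of the blood-brain barrier and its endothelium, Ocln, Slco1a4, Slc2a1, Slc16a1, Abcb1a, Tfrc and Vwf. They were taken from the array's annotation by symbol: every non-control probe set whose single gene symbol was one of the 7 was kept, which gave 12 probe sets, among 7006 single-symbol probe sets of 4736 genes. A probe set is a group of short oligonucleotides on the Affymetrix Rat Genome U34 GeneChip (array A) that together report 1 transcript. The values are linear intensities from the cerebral cortex on the side of a stroke. All rats were ovariectomised females, and in all of them the middle cerebral artery was closed for 2 h with an intraluminal occlusion. They differed in that 1 group received 17beta-estradiol replacement and the other a placebo. Each group has 2 arrays, called estradiol 1 and 2 and placebo 1 and 2, and each array carried RNA pooled from 3 animals, so a group stands for 6 animals and the spread between its arrays is a spread between pools. The rats' age and strain are not in the sources used here. The design text names sampling at 6 and 24 h, and no label ties these 4 arrays to one of them in words. The question was whether barrier transcripts in stroke-side cortex differ with estradiol replacement.

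The blood-brain barrier is formed by the endothelial cells of brain capillaries, which are sealed to each other by tight junctions and so force nutrients to cross the cells themselves. Occludin, the product of Ocln, is a membrane protein of these junctions. Glucose enters through the facilitative carrier GLUT1, encoded by Slc2a1, and lactate and ketone bodies through the monocarboxylate transporter MCT1, encoded by Slc16a1, while organic anions are carried by the Slco1a4 product and lipophilic drugs are pumped back into the blood by P-glycoprotein, which Abcb1a encodes in rodents. The transferrin receptor, encoded by Tfrc, takes up iron-loaded transferrin, and von Willebrand factor, encoded by Vwf, is a clotting protein stored in endothelial cells and platelets. After a transient stroke the barrier opens, and its junctions and carriers are among the parts studied for protection by estrogens.

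Promoter sequences are shown for the 3 genes whose estradiol and placebo pools did not overlap in at least 1 tested probe set (Ocln, Slco1a4 and Slc16a1). That of Slc2a1, whose groups overlapped in both of its probe sets, is set beside them. This choice does not sort the genes into kinds, since the groups overlapped in the other tested probe set of Slc16a1. The sequences are the 250 bases before the start site in the RefSeq promoter table of rat assembly GRCr8, which held 6 of the 7 genes. They lie at chr2:33441199-33441448 (minus strand) for Ocln, chr4:176495847-176496096 (minus strand) for Slco1a4, chr5:138002272-138002521 (plus strand) for Slc2a1 and chr2:194812410-194812659 (plus strand) for Slc16a1, and each is written 5′ to 3′ on its gene's strand. Capitals mark the estrogen response half-site GGTCA and the hypoxia response cores ACGTG and GCGTG, searched on both strands, where ACGTG on one strand can overlap its own match on the other.
Ocln: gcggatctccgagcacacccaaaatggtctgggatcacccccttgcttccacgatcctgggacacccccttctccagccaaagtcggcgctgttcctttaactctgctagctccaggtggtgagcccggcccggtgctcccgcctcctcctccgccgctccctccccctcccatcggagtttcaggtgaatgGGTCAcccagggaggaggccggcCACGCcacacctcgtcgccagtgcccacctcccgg
Slco1a4: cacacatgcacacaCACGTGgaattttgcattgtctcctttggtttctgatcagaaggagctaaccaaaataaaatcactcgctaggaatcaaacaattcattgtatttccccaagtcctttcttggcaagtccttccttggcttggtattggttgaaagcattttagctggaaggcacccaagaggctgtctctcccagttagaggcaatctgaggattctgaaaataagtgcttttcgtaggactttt
Slc2a1: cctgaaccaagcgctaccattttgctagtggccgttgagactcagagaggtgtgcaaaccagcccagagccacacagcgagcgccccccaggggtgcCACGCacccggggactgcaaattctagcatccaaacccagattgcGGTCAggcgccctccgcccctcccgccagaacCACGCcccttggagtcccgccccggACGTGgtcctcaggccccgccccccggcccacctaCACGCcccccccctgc
Slc16a1: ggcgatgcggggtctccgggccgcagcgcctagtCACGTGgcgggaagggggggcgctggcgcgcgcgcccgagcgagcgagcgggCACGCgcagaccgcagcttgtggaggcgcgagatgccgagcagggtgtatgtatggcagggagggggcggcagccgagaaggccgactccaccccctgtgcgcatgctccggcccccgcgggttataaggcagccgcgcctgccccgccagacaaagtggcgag
The half-site GGTCA was found once in the Ocln window, starting 58 bases before the start site, and once in that of Slc2a1, starting 108 bases before it. It was in neither the Slco1a4 nor the Slc16a1 window. It was also in the windows of Abcb1a and Tfrc, which are not shown. The half-site was in 35.4% of all 33469 rat promoters of the same length. The full palindrome GGTCANNNTGACC was in 0 of the 6 windows and in 0.0239% of all promoters. Hypoxia cores were matched 4 times in Slc2a1, 3 times in Slc16a1, 2 times in Slco1a4 and once in Ocln. In the windows not shown they were matched 2 times in Tfrc and 0 times in Abcb1a. In Slc16a1 and Slco1a4, 2 of the hypoxia core matches are the same palindromic stretch read on both strands. Of all promoters, 36.7% had at least 1 hypoxia core match, which is a share of windows and not a number of matches per window. GC content was 68.4% for Slc2a1, 74% for Slc16a1, 66.4% for Ocln and 42.4% for Slco1a4, beside a median of 51.2% over all promoter windows. The start site in the table lies 1009 bases inside the annotated gene for Ocln and 7104 bases inside it for Slc16a1, so other transcripts of these genes start elsewhere. These matches describe letters in a window and say nothing about binding.

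No member, and no other probe set on the array, passed the adjusted threshold. Intensities were compared as log2(intensity + 16) with limma over all 5244 probe sets bright enough to be tested (a mean over the 4 arrays of at least 37.5), and 0 of them had a Benjamini-Hochberg adjusted p below 0.05, a background of 0%. At an unadjusted p below 0.05, limma gave 70 lower and 91 higher. Of the 12 member probe sets, 6 were tested, from 4 genes, and their limma adjusted p was 0.998 in each case. By the same unadjusted limma p, 2 of the 6 tested member probe sets were below it, Ocln with 0.0263 and Slco1a4 with 0.0449, both lower with estradiol, beside 1.33% of all tested probe sets in that direction, and 0 of the 6 higher, beside 1.74%. These unadjusted limma values did not hold throughout. For Ocln p was 0.128 without estradiol 2 and 0.174 without placebo 1. For Slco1a4 it was 0.0628 with no intensity trend in the fit, 0.0734 without estradiol 1, 0.160 without estradiol 2 and 0.182 without placebo 2. Both estradiol pools lay below both placebo pools in 3 of the 6, against 14.3% of all tested probe sets, and above them in 0 of the 6, against 15.4%. The 3 were the probe set of Slco1a4 and 1 probe set each of Ocln and Slc16a1. With so few members these counts describe the list and set it apart from nothing.

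The background on each array was read as the brightest of 23 controls against bacterial, yeast or mouse sequences, which stood at 33.9 in estradiol 1, 37.8 in estradiol 2, 37.8 in placebo 1 and 30.1 in placebo 2. Array medians lay between 55.0 and 57.8. Over all tested probe sets the median log2 fold change was 0.01, and 48.4% were below 0. The number of arrays, 2 per group, limits the precision of every value below. In tissue RNA, fewer barrier cells and less RNA per barrier cell cannot be told apart.

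**Figure D1:**
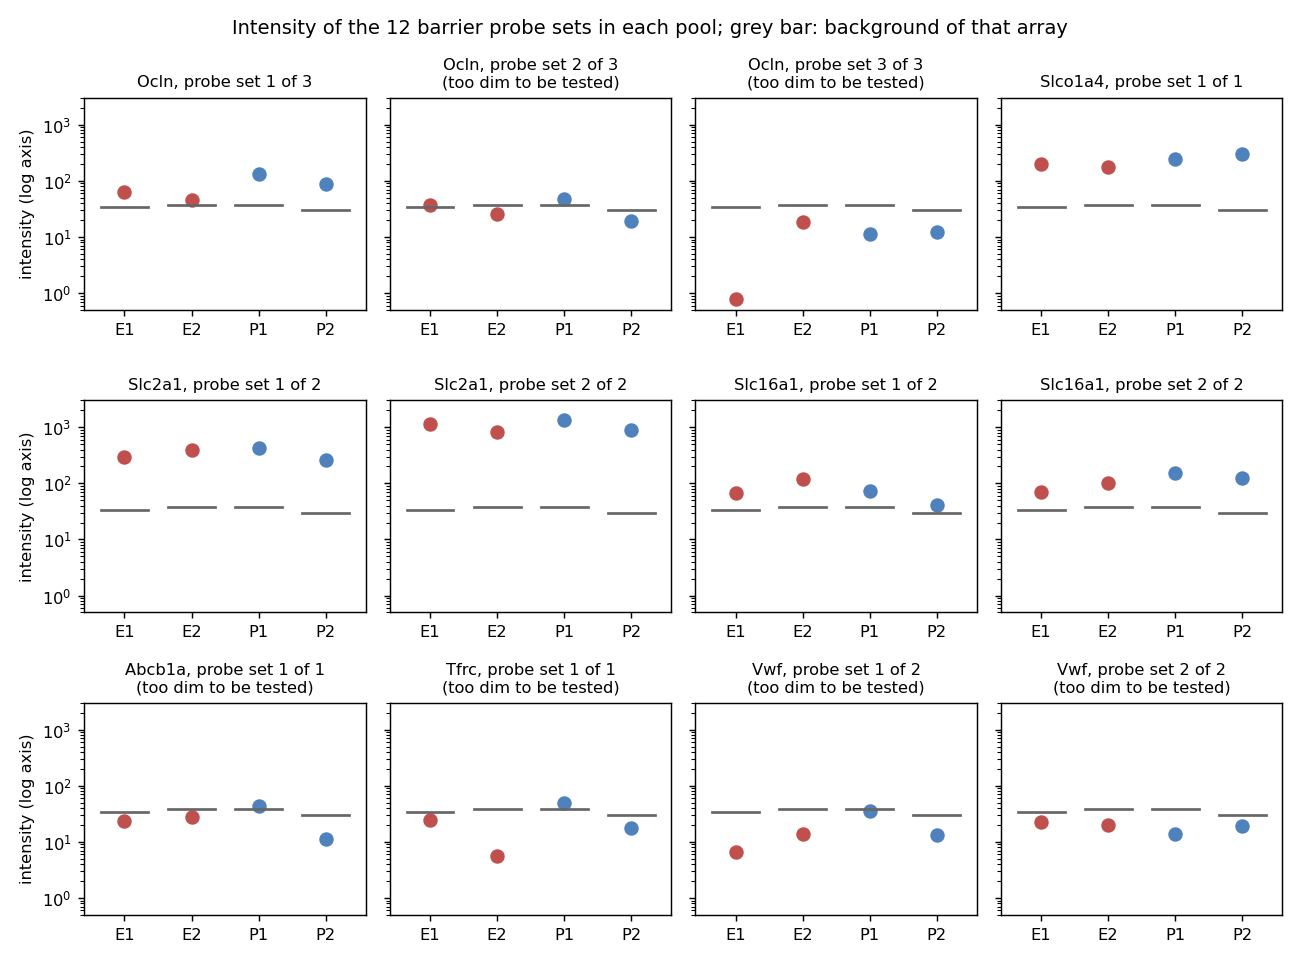
Intensity (log axis) of each of the 12 member probe sets in estradiol pools 1 and 2 (E1, E2, red) and placebo pools 1 and 2 (P1, P2, blue), with a grey bar at the background of each array. Both red points lie below both blue points for Ocln probe set 1, Slco1a4 and Slc16a1 probe set 2 (rc_AI145680_s_at), and the points of Abcb1a, Tfrc and Vwf lie near or under the bars.

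Of the tested members, Ocln had the log2 fold change furthest below 0. Its tested probe set, AB016425_at, read 63.6 in estradiol 1, 44.9 in estradiol 2, 133 in placebo 1 and 86.8 in placebo 2. Both estradiol pools were low and both placebo pools high, with no overlap, and the gap of 23.2 between the nearest pools of the 2 groups was smaller than the 46.3 between the placebo pools themselves. The mean was 54.2 ± 13.2 (SD, n = 2) under estradiol against 110 ± 32.7 (SD, n = 2) under placebo. The log2 fold change was -0.83 ± 0.30 (SE), with a 95% interval from -1.53 to -0.13 that is not adjusted for the number of probe sets. It was -0.91 between the pools numbered 1 and -0.76 between the pools numbered 2, and 1.18% of tested probe sets had a lower value. Without placebo 1 it was -0.56, and without placebo 2 it was -1.10.

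The other 2 Ocln probe sets were too dim to be tested. One of them, rc_AI638971_at, read 37.5 and 25.3 in the estradiol pools and 48.0 and 19.3 in the placebo pools, so the placebo pools lay on both sides of the estradiol pools. Estradiol 1 and placebo 1 alone stood above the background of their arrays there. The other, rc_AI638971_g_at, read 0.8 and 18.7 in the estradiol pools and 11.4 and 12.2 in the placebo pools, at background on every array. The occludin values therefore rest on the 1 tested probe set, and the dim ones give no fold in either direction.

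Slco1a4, the organic anion carrier, was read by 1 probe set that stood well above background on all 4 arrays. It read 195.6 and 173 in the estradiol pools and 247 and 298 in the placebo pools. Both estradiol pools were low and the groups did not overlap. The 2 estradiol pools differed by less from each other than either did from the placebo pools. The mean was 184 ± 16.0 (SD, n = 2) under estradiol against 273 ± 36.1 (SD, n = 2) under placebo. The fitted difference was -0.53 ± 0.22 (SE) on the log2 scale, with a 95% interval from -1.03 to -0.02. The value was -0.65 without placebo 1 and -0.40 without placebo 2. Unlike Ocln, Slco1a4 was brightest in placebo 2.

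The glucose carrier gene Slc2a1 stood well above background on every array, and the groups overlapped in both of its probe sets. One of them, S68135_s_at, read 1127.5 and 825.5 in the estradiol pools and 1338 and 876 in the placebo pools. Pool 1 was the higher of the 2 in both groups, and the pools differed by 0.44 with estradiol and 0.60 with placebo on the log2 scale, more than the groups did. Its log2 fold change was -0.16 ± 0.27 (SE), with a 95% interval from -0.78 to 0.45. The other probe set, M13979_at, read 296 and 386 in the estradiol pools and 433 and 259 in the placebo pools, with the placebo pools outside the estradiol pools on both sides. Its log2 fold change was 0.01 ± 0.28 (SE), with an interval from -0.65 to 0.67. Both intervals reach differences of this size in either direction, so 4 arrays do not show that the groups were alike. Without placebo 1 both probe sets were higher with estradiol, at 0.14 and 0.37, and without placebo 2 both were lower, at -0.47 and -0.34.

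The monocarboxylate carrier gene Slc16a1 had 2 tested probe sets that pointed in opposite directions. One, rc_AI145680_s_at, read 69.8 and 101.5 in the estradiol pools and 155 and 122 in the placebo pools. Both estradiol pools were lower there and the groups did not overlap. The other, D63834_at, read 67.7 and 120 in the estradiol pools and 74.4 and 41.8 in the placebo pools, so estradiol 1 lay between the placebo pools and estradiol 2 above them. The log2 fold change was -0.61 ± 0.27 (SE), with a 95% interval from -1.23 to 0.01, in rc_AI145680_s_at and 0.56 ± 0.35 (SE), with an interval from -0.26 to 1.39, in D63834_at.

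Within an array, D63834_at minus rc_AI145680_s_at gave log2 differences of -0.04 in estradiol 1, 0.22 in estradiol 2, -0.92 in placebo 1 and -1.25 in placebo 2. Both estradiol values were above both placebo values, which restates the opposite fold changes pool by pool and adds no test of them. A single direction for the MCT1 transcript cannot be given from these 2 readings. The sequences the 2 probe sets were made against were not analysed here. Both values depended on single pools: D63834_at had 0.21 without estradiol 2 and 0.92 without estradiol 1, and rc_AI145680_s_at had -0.84 without estradiol 2 and -0.39 without estradiol 1.

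**Figure D2:**
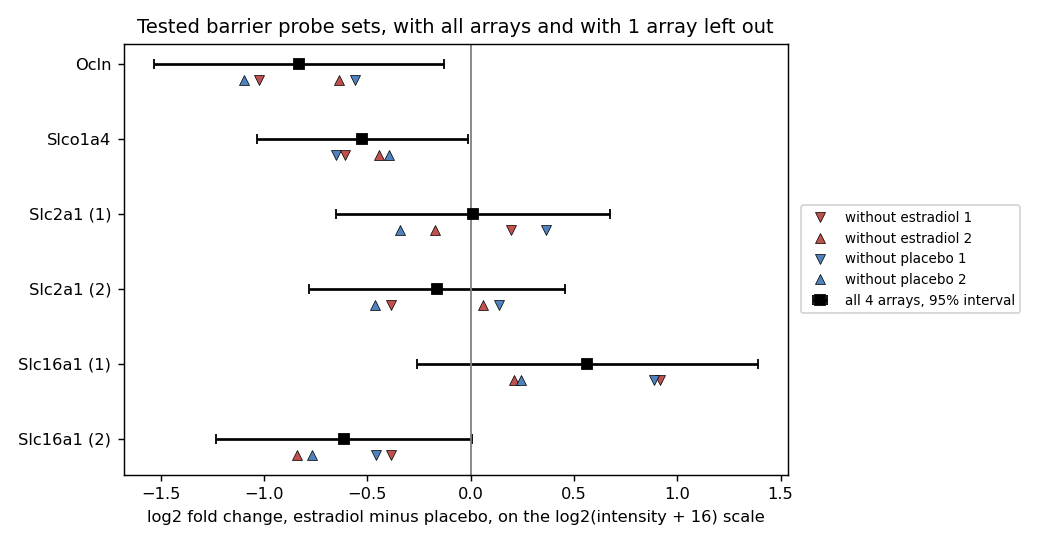
Log2 fold change, estradiol minus placebo, of the 6 tested member probe sets on the log2(intensity + 16) scale, with all 4 arrays (squares, 95% interval of the limma fit) and with 1 array left out (triangles). Slc2a1 (1) is M13979_at, Slc2a1 (2) S68135_s_at, Slc16a1 (1) D63834_at and Slc16a1 (2) rc_AI145680_s_at. The triangles of Ocln and Slco1a4 all lie left of 0, those of both Slc2a1 probe sets lie on both sides, and the Slc16a1 probe sets lie on opposite sides.

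The remaining 3 genes, Abcb1a, Tfrc and Vwf, were at or near background, and none of their 4 probe sets was tested. For Abcb1a, the gene of the drug efflux pump, the values were 23.9 and 27.5 in the estradiol pools and 44.0 and 11.2 in the placebo pools. Only placebo 1 stood above background, and the placebo pools lay on both sides of the estradiol pools. Its mean was 25.7 ± 2.55 (SD, n = 2) under estradiol against 27.6 ± 23.2 (SD, n = 2) under placebo. The paralog Abcb1b was at background throughout, with 7.6 and 5.1 in the estradiol pools and 14.0 and 12.1 in the placebo pools. The related Abcb4, a phospholipid transporter gene, was tested and had a log2 fold change of 0.11 ± 0.25 (SE).

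Tfrc read 24.8 and 5.7 in the estradiol pools and 48.5 and 17.4 in the placebo pools. Only placebo 1 was above background, and the groups overlapped, since placebo 2 lay between the estradiol pools. No fold is given for Abcb1a or Tfrc, because their placebo means of 27.6 and 32.95 lay below the estradiol arrays' background levels. Vwf was at background on every array in both probe sets. Its first probe set, U50044cds_at, read 6.6 and 13.6 in the estradiol pools and 36.0 and 13.3 in the placebo pools, and the second, U50044cds_g_at, read 22.3 and 19.8 in the estradiol pools and 14.1 and 19.2 in the placebo pools. In the second, both estradiol pools were above both placebo pools, which held for 16.2% of all 8740 probe sets, and none of these values can be told from background.

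Placebo 1 was the brightest array for most member probe sets. It was the brightest of the 4 in 4 of the 6 tested probe sets, with estradiol 2 brightest in 1 (D63834_at of Slc16a1) and placebo 2 in 1 (Slco1a4). Over all 3181 tested genes, placebo 1 was the brightest array for 21.5%. Of all 12 member probe sets, the dim ones included, 8 were brightest in placebo 1. The median deviation of the 6 tested probe sets from their own 4-array mean was -0.18 in estradiol 1, -0.19 in estradiol 2, 0.37 in placebo 1 and -0.04 in placebo 2, on the log2 scale. By this median, both estradiol pools were low by a like amount, placebo 1 was high, and placebo 2 lay near the mean. Single probe sets departed from it: placebo 2 was the highest pool for Slco1a4 and the lowest for M13979_at of Slc2a1 and D63834_at of Slc16a1. Over all 12, the median deviation was -0.12 in estradiol 1, -0.09 in estradiol 2 and 0.41 in placebo 1. It was lowest in placebo 2, at -0.14. The median log2 fold change over the 6 tested probe sets was -0.34, with 2 above 0 and 4 below. It was -0.16 without placebo 1 and -0.43 without placebo 2. It was -0.18 over all 12 member probe sets, the 6 too dim to be tested included, and -0.57 over the 4 tested genes with 1 probe set each, the one of highest mean.

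Markers of several other cell types stood high in placebo 1, and those of neurons stood low. Of the 9 neuron markers 0 were brightest in placebo 1 and 6 in placebo 2, and their median deviation was 0.03 and 0.04 in the estradiol pools and -0.27 and 0.26 in the placebo pools. Of 8 blood cell markers 4 were brightest in placebo 2 and 3 in placebo 1. Among 14 hypoxia and glycolysis genes 7 were brightest in placebo 2 and 3 in placebo 1. Over all tested genes, 26.3% were brightest in placebo 2 and 21.5% in placebo 1. Ttr, the transthyretin gene that choroid plexus expresses at a high level, read 165 and 4312 in the estradiol pools and 8034 and 74.3 in the placebo pools. The summed intensity of the 7 choroid plexus markers on the array was 2274 and 6815 in the estradiol pools and 12761 and 1248 in the placebo pools, and 0 of the 7 were at background on every array. Of the 6 tested, 5 were brightest in placebo 1. Choroid plexus is also known to express Slc2a1 and Slco1a4. Ttr was highest in placebo 1, where Ocln was brightest, and lowest in placebo 2, where Slco1a4 was brightest. In estradiol 2, where Ttr read 4312, Ocln and Slco1a4 were both at their lowest, at 44.9 and 173. M13979_at of Slc2a1 had the same order of pools as Ttr, with 296 and 386 in the estradiol pools and 433 and 259 in the placebo pools. S68135_s_at of Slc2a1 was also highest in placebo 1 but lowest in estradiol 2, at 825.5. For Slc16a1, D63834_at was highest in estradiol 2 and lowest in placebo 2, and rc_AI145680_s_at was highest in placebo 1 and lowest in estradiol 1. The part of choroid plexus tissue in the members' values was not tested.

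Oligodendrocyte, endothelial and mural markers were high in placebo 1 too. All 5 tested oligodendrocyte markers were brightest there, with sums of 16351 and 12394 in the estradiol pools and 20388 and 13094 in the placebo pools. Of 12 tested endothelial markers 6 were brightest in placebo 1, and the 14 endothelial markers on the array summed to 1805 and 1634 in the estradiol pools and 2136 and 1624 in the placebo pools, with 1 at background on every array. For 12 mural markers, those of pericytes and smooth muscle, the sums were 958 and 950 in the estradiol pools and 1261 and 938 in the placebo pools, with 2 at background on every array. The sums lean on the brightest genes; as the median deviation from each gene's 4-array mean, on the log2 scale, the tested endothelial markers had 0.04 and -0.17 under estradiol and 0.24 and -0.12 under placebo, and the tested mural markers -0.12 and -0.02 under estradiol and 0.35 and 0.02 under placebo. By these medians placebo 2 lay between the estradiol pools for endothelial markers and above both for mural markers. Blood cell markers were lower with estradiol in 7 of 8 tested genes, with Hbb, a globin gene, at 959 and 2310 in the estradiol pools and 3517 and 3055 in the placebo pools. Their part in the members' values was not tested.

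**Figure D3:**
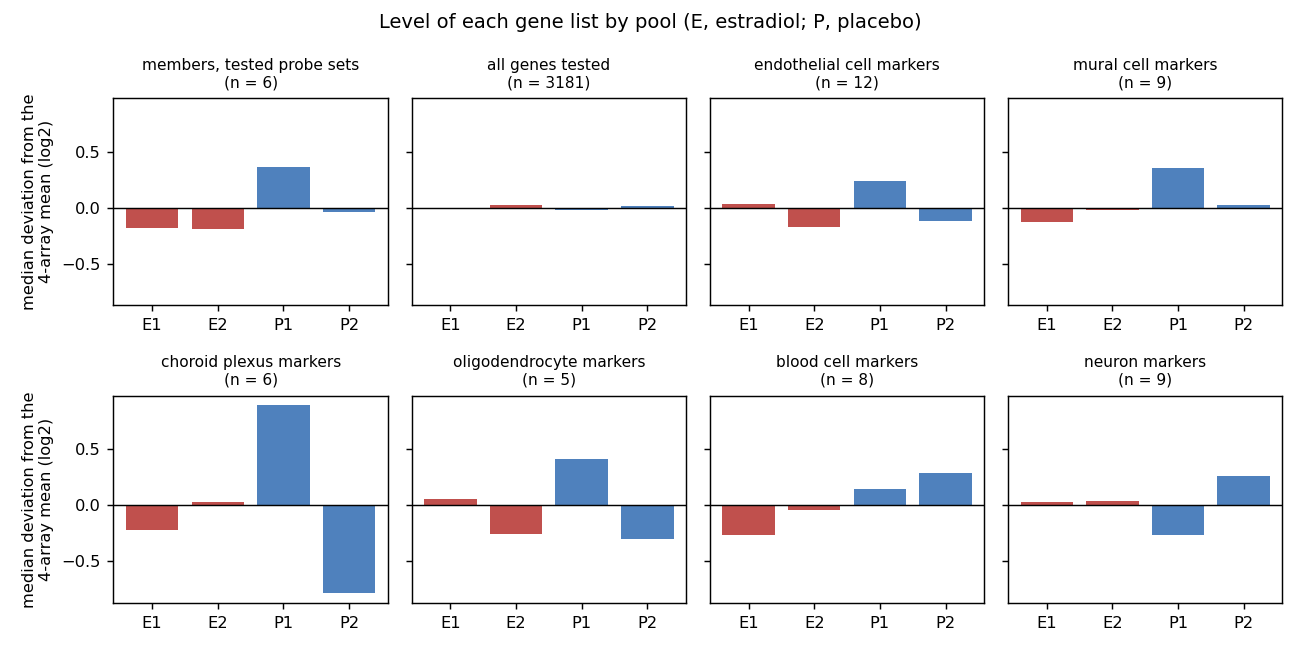
Median deviation of each list's tested genes from their own mean over the 4 arrays, on the log2(intensity + 16) scale, in estradiol pools 1 and 2 (E1, E2) and placebo pools 1 and 2 (P1, P2). The members, endothelial, mural, choroid plexus and oligodendrocyte lists are highest in P1, at 0.37, 0.24, 0.35, 0.89 and 0.41, while all genes stay within 0.03 of 0.

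Of the other genes of the vessel wall, none passed the adjusted threshold in limma in either direction. The junction and endothelial adhesion list had 22 genes, of which 7 were on the array and 6 were tested. Of these 6, 2 were above 0 and 4 below, with a median log2 fold change of -0.10. With 1 array left out, the median lay between -0.35 (without estradiol 1) and 0.06 (without placebo 1). Over all 3181 tested genes the median was 0.01 and 47.6% were below 0. Tjp1, which encodes the junction scaffold ZO-1, read 238 and 397.5 in the estradiol pools and 380 and 277 in the placebo pools, or -0.07 ± 0.29 (SE) on the log2 scale, with overlapping groups. The claudin genes Cldn7 and Cldn3 had -0.43 ± 0.31 (SE) and 0.02 ± 0.39 (SE), and Pecam1, an endothelial adhesion gene, had -0.19 ± 0.27 (SE). Gja4, which encodes a connexin of vascular gap junctions, had 0.94 ± 0.44 (SE). It read 157 and 80.9 with estradiol against 83.9 and 29.5 with placebo, in overlapping pools. Placebo 2 was at background for Gja4 and estradiol 2 for Cldn3. The main claudin of brain endothelium, Cldn5, was not analysed here.

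The list of other barrier carriers, pumps and receptors did not lie lower with estradiol. Of its 42 genes, 27 were on the array and 19 were tested, with 11 above 0, 8 below and a median of 0.09. Both estradiol pools lay above both placebo pools in 4 of the 19 and below them in 3. Over all tested probe sets the shares were 15.4% above and 14.3% below. Slc3a2 and Slc7a5, the 2 chains of the large neutral amino acid carrier of the barrier, read together: Slc3a2 had 964.5 and 756 in the estradiol pools and 751 and 611 in the placebo pools, and Slc7a5 at 350 and 305 in the estradiol pools and 304 and 259 in the placebo pools. In both, the estradiol pools were above the placebo pools by a margin of 4.5 and 0.5 intensity units between the nearest pools, smaller than the gap between the pools of either group, and the log2 fold changes were 0.33 ± 0.22 (SE) and 0.21 ± 0.21 (SE). The carnitine carrier gene Slc22a5 read 30.2 and 96.9 in the estradiol pools and no more than 26.0 in a placebo pool; it was above background in estradiol 2 alone, so no fold is given. The creatine carrier gene Slc6a8 had 0.38 ± 0.22 (SE). The lowest were -0.33 ± 0.33 (SE) for the fructose carrier gene Slc2a5 and -0.30 ± 0.32 (SE) for the neuronal glucose carrier gene Slc2a3. Slc2a5 was at background in estradiol 1.

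Endothelial markers had 10 of 12 tested genes below 0 and a median of -0.13. With 1 array left out, this median lay between -0.27 (without estradiol 1) and 0.08 (without placebo 1). Calcrl, a receptor gene, read 28.7 and 35.2 in the estradiol pools, at background in both, and 54.1 and 42.9 in the placebo pools, and no fold is given for it. Nos3, the endothelial nitric oxide synthase gene, had -0.41 ± 0.27 (SE). The highest were 0.11 ± 0.23 (SE) for the adhesion gene Vcam1 and 0.03 ± 0.31 (SE) for Ece1, the endothelin-converting enzyme gene. Mural markers had 6 of 9 below 0 and a median of -0.17, with Vtn, a matrix protein gene expressed in pericytes, at 36.6 and 28.4 in the estradiol pools and 129 and 73.6 in the placebo pools, or -1.24 ± 0.34 (SE) on the log2 scale; estradiol 2 was at background there. Acta2, the smooth muscle actin gene, had -0.46 ± 0.27 (SE), Myl9 0.61 ± 0.41 (SE) and Abcc9 0.16 ± 0.23 (SE). Vtn resembled Ocln in that both estradiol pools were lowest and placebo 1 was highest.

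**Figure D4:**
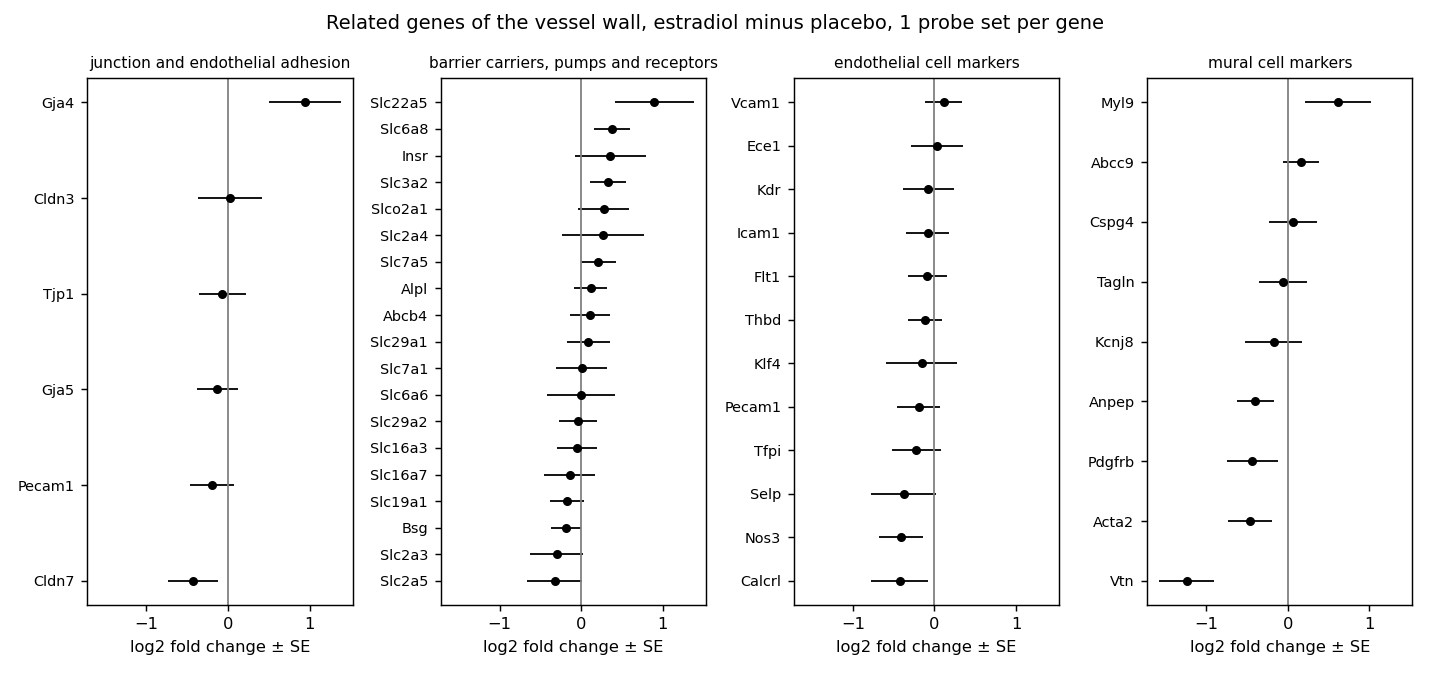
Log2 fold change, estradiol minus placebo, with the SE of the limma fit, of each tested gene of the junction, carrier, endothelial and mural lists, each by its probe set of highest mean. Calcrl was at background in both estradiol pools and Slc22a5 in both placebo pools, so their points have no exact size. Values below 0 number 4 of 6, 8 of 19, 10 of 12 and 6 of 9 in these lists, and no gene passed the adjusted threshold.

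Of the genes that share a function with single members, none passed the adjusted threshold in limma. For MCT1, Bsg, which encodes the chaperone basigin that carries it to the membrane, read 1760 and 1759 in the estradiol pools and 2039 and 1974 in the placebo pools, so the estradiol pools were lower without overlap, at a log2 fold change of -0.19 ± 0.18 (SE). The other monocarboxylate carrier genes Slc16a7 and Slc16a3 had -0.14 ± 0.32 (SE) and -0.05 ± 0.25 (SE), and the list of monocarboxylate and ketone use had 4 of 5 tested genes below 0 and a median of -0.14, with Bdh1 lowest at -0.30 and Ldhb highest at 0.01. Both estradiol pools lay below both placebo pools in 3 of these 5, beside the 14.3% of all tested probe sets. For Tfrc, the iron handling list had 6 of 8 above 0 and a median of 0.09. The iron-responsive RNA-binding proteins that stabilise the Tfrc transcript are encoded by Aco1, with -0.39 ± 0.24 (SE), and Ireb2, with -0.35 ± 0.29 (SE), and in both the estradiol pools lay below the placebo pools. The iron importer gene Slc11a2 had 0.22 ± 0.23 (SE) and Hmox1, the heme oxygenase gene, 0.22 ± 0.40 (SE).

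For Vwf, the list of coagulation and haemostasis had 5 of 10 above 0 and a median of -0.02, between Selp, the P-selectin gene, with -0.37 ± 0.40 (SE), Tfpi with -0.22 ± 0.30 (SE), Plat, the tissue plasminogen activator gene, with 0.53 ± 0.43 (SE) and Itgb3 with 0.58 ± 0.52 (SE). For the hypoxia-regulated carriers, the hypoxia and glycolysis list had 8 of 14 below 0 and a median of -0.12, with Pkm, the pyruvate kinase gene, lowest at -0.37 ± 0.19 (SE) and P4ha1 highest at 0.29 ± 0.27 (SE). The glucose carrier gene Slc2a4 had 0.27 ± 0.50 (SE). It read 93.2 and 33.0 in the estradiol pools and 26.2 and 71.6 in the placebo pools, at background in estradiol 2 and placebo 1. Itgb3 was at background on the same arrays. Of the organic anion carriers near Slco1a4, Slco1a5 was at background throughout, with 30.6 and 27.6 in the estradiol pools and 12.6 and 16.8 in the placebo pools, and Slco1a1 on all but placebo 1, at 16.0 and 31.0 in the estradiol pools and 40.1 and 15.1 in the placebo pools.

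Astrocyte and end-foot markers, of the cells that ensheathe the vessels, had 7 of 9 tested genes below 0 and a median of -0.10, neuron markers 4 of 9 and 0.04, microglia and macrophage markers 4 of 6 and -0.05, oligodendrocyte markers 4 of 5 and -0.07, choroid plexus markers 2 of 6 and 0.04, and blood cell markers 7 of 8 and -0.48. Without placebo 1 the medians were -0.24 for neuron, 0.30 for oligodendrocyte and 0.61 for choroid plexus markers. Without placebo 2 they were 0.35, -0.45 and -0.84 in the same order. All 9 neuron markers on the array were tested, in tissue labelled as cortex.

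The genes whose centred profile over the 4 arrays lay closest to each member were named by the root mean square difference on the log2 scale. For Ocln these were Prm3 with 0.07, Pank2 with 0.10 and Sardh with 0.12, against 0.48 for the profile of Ocln itself. For Slco1a4 they were Hpcal4 with 0.02, Kcna4 with 0.04 and Grk1 with 0.04, against 0.28. For Slc2a1, by S68135_s_at, they were Qdpr with 0.01, Myl12a with 0.03 and Nqo1 with 0.04, against 0.28, and for Slc16a1, by rc_AI145680_s_at, Elavl4 with 0.05, Ckmt1 with 0.07 and Gucy2e with 0.09, against 0.36. Of 3180 other genes, 2 lay within 0.1 of Ocln, 6 of Slc16a1, 17 of Slco1a4 and 41 of Slc2a1, so 4 arrays leave many genes with like profiles. None of the genes named for one member was named for another.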

How the data were processed

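The deposited table holds the authors' linear intensity for each probe set and array. With the outer 2% of values trimmed on either side, the 4 column means lie from 150.18 to 150.20, so arrays had been scaled before deposit. The program used is not stated in the sources. Of 8799 rows, 59 controls were left out, and 8740 probe sets remained. Genes were named from the platform annotation only where a probe set had 1 symbol. The members and gene lists were chosen with earlier results of these data known.

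Values were transformed as log2(intensity + 16), which understates changes of dim probe sets, and probe sets with a 4-array mean below the 40th percentile (37.5) were left out. The remaining 5244 were fitted with limma (version 3.58.1, R 4.3.3; lmFit, eBayes with intensity trend, two-sided, Benjamini-Hochberg over all tested), with 2 residual and 5.63 prior degrees of freedom. The procedure was also run on simulated data with independent noise and with changes larger than the fold change of any member. That run says nothing about changes of the members' size. Groups came from the sample titles. Errors are the SD over 2 pools or the SE of the fit. Genes to name were, by rule, every member probe set, the 2 highest and 2 lowest log2 fold changes of each list by the probe set of highest mean, Ttr, Hbb, paralogs, and the 3 nearest profiles per member; those of other cell types are given as counts. Slc3a2, Slc7a5 and Tjp1 were named outside this rule, after their values were seen. Alternatives were offsets of 1 and 64, no filter, a filter at the 60th percentile, quantile normalisation, median centring, no intensity trend, a replicate block, and each array left out. Plots used Python 3.11.15, pandas 2.3.3 and matplotlib 3.10.9.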

Additional observations from a re-analysis of the deposited data

How the results depend on the processing

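With limma, 0 probe sets passed the adjusted threshold under any of the 12 alternatives, and the lowest adjusted p of a member was 0.956. Of 70 values of the 6 tested member probe sets under the alternatives, 64 kept their sign. The exceptions were both Slc2a1 probe sets. M13979_at had -0.0033 after quantile normalisation and -0.021 after median centring, and lay between -0.34 (without placebo 2) and 0.37 (without placebo 1) with 1 array left out; S68135_s_at lay between -0.47 and 0.14, above 0 without estradiol 2 (0.06) or placebo 1. With 1 array left out, Ocln lay between -1.10 and -0.56, Slco1a4 between -0.65 and -0.40, and Slc16a1 between 0.21 and 0.92 in D63834_at and between -0.84 and -0.39 in rc_AI145680_s_at. Ocln was -0.55 with an offset of 64 and -0.99 with an offset of 1. Ocln and D63834_at were too dim for the 60th percentile filter. Unadjusted limma p lay between 0.0156 and 0.174 for Ocln and between 0.0327 and 0.182 for Slco1a4; for rc_AI145680_s_at, 0.0521 with all arrays, it lay between 0.0360 and 0.251. The median over the members was -0.34; it was -0.18 over all 12 without the filter and -0.57 with 1 probe set per gene, which drops the Slc16a1 and Slc2a1 probe sets with values above 0, and lay between -0.43 and -0.16 with 1 array left out. Of 182 list medians under alternatives, 29 moved by more than the spread between pools. The iron handling median was -0.12 without placebo 2, that of coagulation 0.15 without estradiol 2, that of microglia 0.32 without estradiol 1 and that of other barrier carriers -0.0018 without placebo 2. The replicate numbers were shared by both groups, but nothing says that they mark a shared batch; pool 1 minus pool 2 correlated with r = 0.04 between the groups over tested probe sets, and with the replicate block 0 probe sets passed and Ocln had -0.83 and Slco1a4 -0.53, with unadjusted limma p of 0.0156 and 0.0487. The dim probe sets of Abcb1a, Tfrc and Vwf limit any statement on these genes to their background.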
